A study of Homo sapiens with 9 samples.

Results

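Aminoacyl-tRNA synthetases are the enzymes that join each amino acid to its transfer RNA. The genes described here are those of the human enzymes that work in the cytosol and of those that work in mitochondria, 36 listed symbols in all. A member was measured by a probe set annotated with exactly its symbol, and where there were several, by the one with the highest mean over all 9 arrays. A symbol that ends in 1, A, B or 3 was placed in the cytosolic class and one that ends in 2 in the mitochondrial class. This gave values for 33 of the 36 genes, 18 of 20 cytosolic and 15 of 16 mitochondrial, among 19775 genes with a probe set of their own. MARS1, QARS1 and TARS2 were not analysed here, because their probe sets also carry the symbol of a microRNA. All 33 measured genes passed the filter on low values, as did 11250 genes in all, and all 33 were tested.

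The RNA came from Daudi cells, 1 established human B-cell line of Burkitt lymphoma, which carries a MYC translocation. Cells received short hairpin RNA (shRNA) against SLC7A5 (Slc7a5-sh), shRNA against MYC (C-Myc-sh) or a control shRNA (Ctrl-sh), with 3 arrays each. C-Myc-sh was included by the study as its positive control. All groups grew in the same RPMI medium with 10% serum and 2 mM glutamine and spent 48 h under puromycin, so infection and selection were shared by the control cells. The number and sequence of the hairpins per gene are not given in the sources used here. The arrays are labelled biological replicates, but the labels do not tell whether each had its own infection, and p-values then cover only the spread between these samples.

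SLC7A5 is the light chain of a plasma membrane exchanger that brings large neutral amino acids such as leucine, isoleucine, valine, phenylalanine, tyrosine, tryptophan, methionine and histidine into the cell. When an amino acid runs short, uncharged transfer RNA activates the kinase GCN2, translation initiation slows, and the transcription factor ATF4 is made and binds amino acid response elements of its target genes, many cytosolic synthetase genes among them. MYC, as a dimer with MAX, binds E-boxes and is known to raise genes of ribosome production and translation. Mitochondrial synthetases are encoded in the nucleus, imported, and charge the transfer RNAs of the mitochondrial genome. GARS1 and KARS1, cytosolic here by symbol, each encode the enzyme of both compartments.

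Promoters are shown because several called genes, among them TARS1, CARS1, MARS2 and CARS2, carry letters of the ATF4 or the MYC element close to their start. Other genes with large changes gave no match: WARS1, FARSA, FARSB and NARS2 had neither element in the windows searched. VARS1, TARS3 and YARS1 could not be searched. Promoter windows from 250 bases before to 50 bases after the gene start (RefSeq, GRCh38.p14) were held for 30 of the 36 listed genes. LARS1, TARS3, VARS1, YARS1, AARS2 and VARS2 had none. The letters TGATGNAAN, the core of an amino acid response element, were searched on both strands. They were found in 7 of 16 cytosolic windows (43.8%; TARS1, GARS1, IARS1, CARS1, MARS1, AARS1 and NARS1) and in 1 of 14 mitochondrial windows (7.14%; YARS2), against 2.92% of the 9226 tested genes with a window. The E-box letters CACGTG were found in 1 of 16 cytosolic windows (6.25%; IARS1) and in 3 of 14 mitochondrial windows (21.4%; MARS2, CARS2 and EARS2), against 12.8% of those 9226 genes. Over both classes the E-box share was 4 of 30 windows (13.3%), near that of the tested genes. No match of the 2 motifs overlapped another. A match is a string of letters in this window, not a bound site.

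The windows around the response element letters of the 6 measured cytosolic genes are printed 5′ to 3′ on the strand of the gene, with the match in capitals. In all but NARS1 the match lies on the opposite strand, so the capitals read as its reverse complement.
TARS1, chr5:33440911-33440979 (plus strand): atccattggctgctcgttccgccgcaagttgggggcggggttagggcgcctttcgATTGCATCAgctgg
GARS1, chr7:30594789-30594857 (plus strand): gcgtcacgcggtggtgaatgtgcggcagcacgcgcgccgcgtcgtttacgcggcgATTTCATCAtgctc
CARS1, chr11:3057413-3057481 (minus strand): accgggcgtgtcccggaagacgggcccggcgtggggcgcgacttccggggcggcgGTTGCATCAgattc
IARS1, chr9:92293698-92293766 (minus strand): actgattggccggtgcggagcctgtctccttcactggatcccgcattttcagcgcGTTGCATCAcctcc
AARS1, chr16:70289681-70289749 (minus strand): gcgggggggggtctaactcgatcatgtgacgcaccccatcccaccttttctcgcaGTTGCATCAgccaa
NARS1, chr18:57621809-57621877 (minus strand): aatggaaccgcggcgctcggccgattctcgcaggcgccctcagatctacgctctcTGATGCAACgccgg
Counted from the gene start, 5 of these 6 matches lie between positions -34 and 23, and that of AARS1 lies at -188 to -180. CARS1, IARS1 and AARS1 share the same 9 letters, and NARS1 carries these 9 letters as their reverse complement.

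The E-box of MARS2 lies at -11 to -6 from its start, and that of CARS2 spans the start itself. Both windows are printed in the same way, with the E-box in capitals.
MARS2, chr2:197705303-197705368 (plus strand): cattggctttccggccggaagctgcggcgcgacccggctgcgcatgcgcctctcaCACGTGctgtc
CARS2, chr13:110706508-110706573 (minus strand): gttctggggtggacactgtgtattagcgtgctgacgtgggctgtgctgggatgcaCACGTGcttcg

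Each value below is a log2 signal of 1 probe set on 1 array, after the authors scaled all arrays to a common target, so it is relative to the other RNA of the sample. Changes are differences of group means on the log2 scale with their standard error (SE), tested with limma and adjusted over the 11250 tested genes. Adjusted p-values under 0.05 counted as a call. Median signals of the 9 arrays lay between 6.05 and 6.26, and correlations of arrays across genes lay between 0.972 and 0.977 within groups and between 0.91 and 0.968 between groups. SLC7A5 had log2 signals of 11.86, 11.84 and 11.95 in Slc7a5-sh cells, against 12.06, 12.35 and 12.21 in Ctrl-sh cells, a change of -0.32 (SE 0.07, adjusted p = 0.00414). MYC had 12.12, 12.14 and 12.13 in C-Myc-sh cells, against 13.16, 13.26 and 13.24 in Ctrl-sh cells, which is 46.9% of the Ctrl-sh signal (adjusted p = 4.7e-10). Neither targeted gene overlapped with Ctrl-sh, and each also fell in the knockdown of the other. SLC7A5 fell by 0.41 in C-Myc-sh cells (adjusted p = 0.000186) and MYC by 0.35 in Slc7a5-sh cells (adjusted p = 0.000381). SLC7A5 thus stood at 80.0% of the Ctrl-sh signal in Slc7a5-sh cells and at 75.4% in C-Myc-sh cells. Between the knockdowns SLC7A5 was not called (-0.08, adjusted p = 0.351), while MYC was lower in C-Myc-sh cells (-0.74, adjusted p = 4.08e-08). All 8 measured B-cell markers were above the filter level in each group, against 1 of 7 T and NK cell markers (CD3E), 0 or 1 of 4 myeloid markers and 3 or 4 of 6 epithelial and fibroblast markers. The summed linear signals of the epithelial and fibroblast list were 568.8 to 666.7 in Slc7a5-sh, 469 to 698.2 in C-Myc-sh and 677 to 821.9 in Ctrl-sh cells, and their part in the results was not tested.

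Slc7a5-sh against Ctrl-sh asked what the knockdown of this carrier does to transcripts of the enzymes that use its cargo. Cytosolic synthetase transcripts moved mostly upward: 9 of 18 rose (WARS1, TARS1, CARS1, HARS1, GARS1, YARS1, LARS1, EPRS1 and NARS1), 2 fell (VARS1 and FARSA) and 7 were not called. Of the 15 mitochondrial genes 1 rose (FARS2), 3 fell (NARS2, CARS2 and IARS2) and 11 were not called. Among all tested genes 25.3% were called, 14.3% higher and 11% lower, and in 39.8% the groups did not overlap. All 15 called members also had no overlap between the groups, which held for 24.6% of all tested genes. The median log2 change was 0.19 over the cytosolic and 0.03 over the mitochondrial genes, beside 0.03 over all tested genes. The called members changed by little, between 0.18 and 0.67 upward and between 0.20 and 0.53 downward in log2 size. With all probe sets of a gene averaged, dim ones included, 4 cytosolic genes rose and 0 fell, and the cytosolic median was 0.0591.

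WARS1, the tryptophan enzyme and a gene known to respond to interferon gamma, had log2 signals of 12.05, 12.03 and 12.24 in Slc7a5-sh cells, against 11.45, 11.51 and 11.36 in Ctrl-sh cells. All 3 Slc7a5-sh arrays lay above all Ctrl-sh arrays, and WARS1 was 1.59-fold higher (log2 change 0.67, SE 0.07, adjusted p = 2.01e-05). TARS1, which charges threonine, had 12.59, 12.43 and 12.58 in Slc7a5-sh cells, against 11.89, 11.98 and 11.95 in Ctrl-sh cells. It too was higher without overlap, 1.51-fold (log2 change 0.59, SE 0.06, adjusted p = 1.6e-05), although a second, dimmer TARS1 probe set gave 0.02. CARS1, the cysteine enzyme, had 13.17, 13.06 and 13.27 in Slc7a5-sh cells, against 12.63, 12.70 and 12.42 in Ctrl-sh cells. Its groups stood apart as well, with a log2 change of 0.58 (SE 0.07, adjusted p = 6.3e-05). Of the other CARS1 probe sets 2 gave 0.66 and 0.33, and the dimmest gave -1.89.

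HARS1, which charges histidine, had 11.47, 11.61 and 11.74 in Slc7a5-sh cells, against 11.24, 11.20 and 11.08 in Ctrl-sh cells, a log2 change of 0.43 (SE 0.08, adjusted p = 0.000873). GARS1, the glycine enzyme of cytosol and mitochondria, had 14.001, 13.992 and 14.224 in Slc7a5-sh cells, against 13.69, 13.75 and 13.66 in Ctrl-sh cells, a log2 change of 0.37 (SE 0.06, adjusted p = 0.000642). Both rose with no overlap between the groups. FARS2, the mitochondrial phenylalanine enzyme, had 9.81, 9.76 and 9.80 in Slc7a5-sh cells, against 9.23, 9.15 and 9.43 in Ctrl-sh cells. It was the 1 mitochondrial gene that rose, 1.44-fold (log2 change 0.52, SE 0.11, adjusted p = 0.00317). A second FARS2 probe set gave 0.30, and another, below the filter level, gave -1.55.

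Smaller increases were seen for YARS1 (tyrosine; 0.25, adjusted p = 0.0103), LARS1 (leucine, and known as a leucine sensor of the mTORC1 pathway; 0.24, adjusted p = 0.00256), EPRS1 (1 protein with a glutamate and a proline enzyme; 0.21, adjusted p = 0.0104) and NARS1 (asparagine; 0.18, adjusted p = 0.0198). None of the 4 overlapped with Ctrl-sh. Probe sets of EPRS1 disagreed: the brightest, used here, rose, while the other 2 gave -0.23 and -0.42. NARS1 lost its call without Ctrl-sh array 2 (0.16), Ctrl-sh array 3 (0.18), Slc7a5-sh array 1 (0.17) or Slc7a5-sh array 3 (0.14). RARS1, the arginine enzyme, had 13.15, 13.14 and 13.07 in Slc7a5-sh cells, against 12.49, 12.90 and 12.86 in Ctrl-sh cells. These groups did not overlap, yet the gene missed the threshold (log2 change 0.37, SE 0.16, adjusted p = 0.109). Its C-Myc-sh arrays, which share in the estimate of the spread, read 12.07, 12.89 and 12.81, and without the array at 12.07 (C-Myc-sh array 1) the same change of 0.37 was called (adjusted p = 0.00736).

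VARS1, the valine enzyme, had 9.90, 9.63 and 10.09 in Slc7a5-sh cells, against 10.21, 10.62 and 10.38 in Ctrl-sh cells, or 69.4% of the Ctrl-sh signal (adjusted p = 0.0213). FARSA, the catalytic alpha subunit of the phenylalanine enzyme, had 10.44, 10.59 and 10.73 in Slc7a5-sh cells, against 10.94, 10.80 and 11.01 in Ctrl-sh cells (log2 change -0.33, SE 0.10, adjusted p = 0.03). Both lay lower on every Slc7a5-sh array, and both depended on single arrays. VARS1 lost its call without Ctrl-sh array 2 (-0.42), Ctrl-sh array 3 (-0.54) or Slc7a5-sh array 2 (-0.40), and FARSA without Ctrl-sh array 1 (-0.31), Ctrl-sh array 3 (-0.28), Slc7a5-sh array 1 (-0.26) or Slc7a5-sh array 2 (-0.33). FARSB, the beta subunit of the same enzyme, did not follow FARSA: it had 12.89, 12.77 and 12.97 in Slc7a5-sh cells, against 12.86, 12.89 and 12.87 in Ctrl-sh cells (log2 change 0.00, 95% interval -0.12 to 0.13). AARS1, IARS1, KARS1, SARS1 and TARS3 were not called either, with changes between -0.00 and 0.18, though KARS1 was called after quantile normalization (0.12, adjusted p = 0.0205).

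Of the mitochondrial genes that fell, NARS2, for asparagine, had 11.006, 11.002 and 11.130 in Slc7a5-sh cells, against 11.32, 11.37 and 11.35 in Ctrl-sh cells (log2 change -0.30, SE 0.07, adjusted p = 0.0053). CARS2, for cysteine, had 11.01, 10.98 and 11.01 in Slc7a5-sh cells, against 11.23, 11.24 and 11.21 in Ctrl-sh cells (-0.23, adjusted p = 0.0263). IARS2, for isoleucine, had 11.90, 11.92 and 11.90 in Slc7a5-sh cells, against 12.17, 12.04 and 12.10 in Ctrl-sh cells (-0.20, adjusted p = 0.0178). All 3 were lower on every Slc7a5-sh array than on any Ctrl-sh array. CARS2 lost its call without Ctrl-sh array 1 (-0.22), 2 (-0.22) or 3 (-0.24) or Slc7a5-sh array 1 (-0.23) or 2 (-0.22), and IARS2 without Ctrl-sh array 1 (-0.16), Ctrl-sh array 3 (-0.20) or Slc7a5-sh array 1 (-0.19). HARS2 had a log2 change of 0.21 (adjusted p = 0.11) and was called, at 0.28, when Slc7a5-sh array 2 was left out. The 11 genes not called had log2 changes between -0.15 (VARS2) and 0.31 (WARS2).

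**Figure D1:**
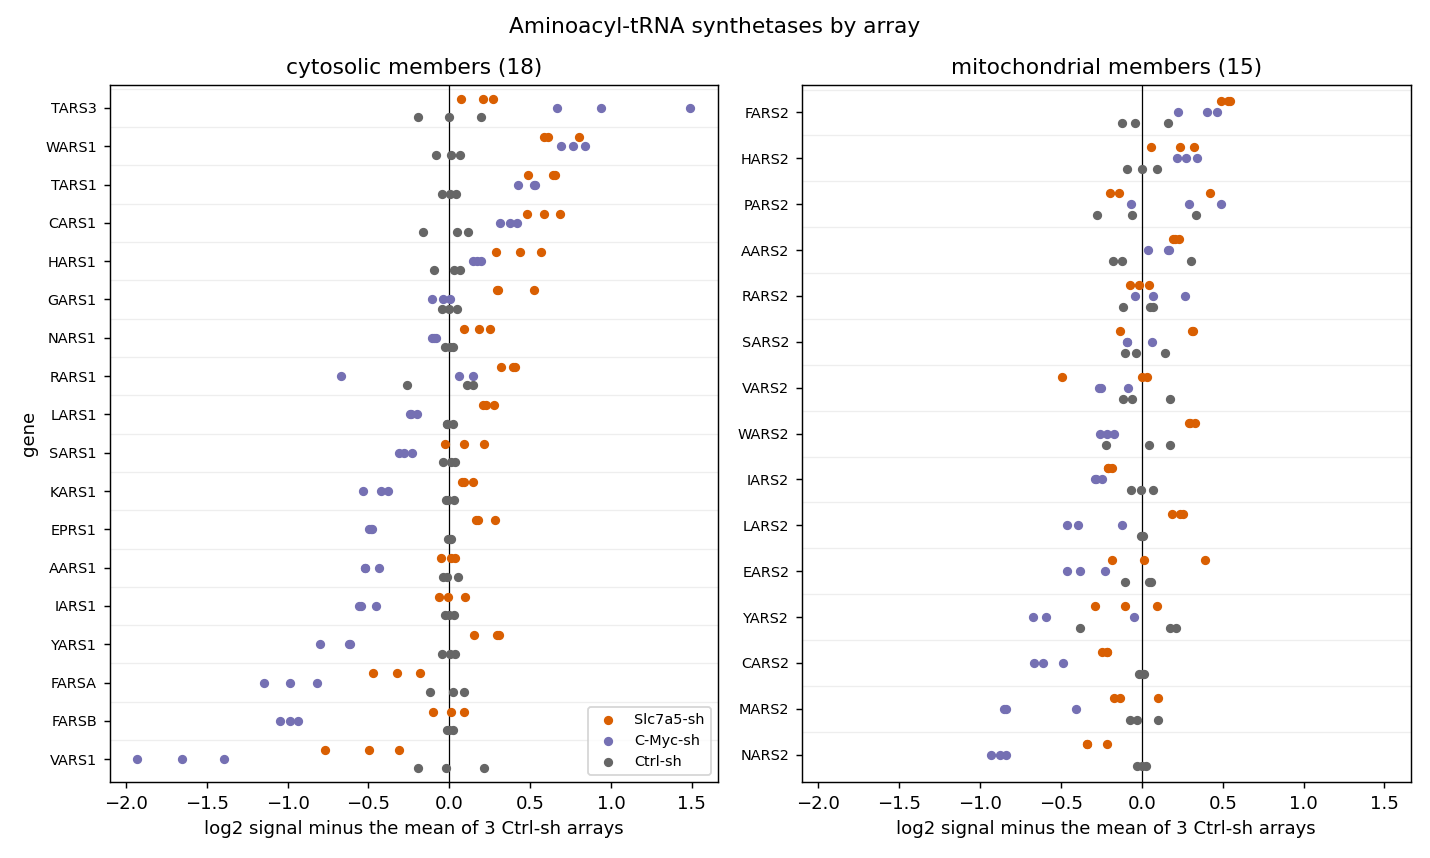
Log2 signal minus the mean of the 3 Ctrl-sh arrays (x axis) for each measured gene (rows), 1 point per array, cytosolic genes in the left panel and mitochondrial genes in the right. In each row the Slc7a5-sh points are drawn above the C-Myc-sh and Ctrl-sh points; WARS1, TARS1 and CARS1 lie above 0 in both knockdowns, and VARS1 and FARSA below it.

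C-Myc-sh against Ctrl-sh asked the same of the knockdown of MYC, in which 6178 of the 11250 tested genes were called, against 2843 in Slc7a5-sh cells. Here cytosolic synthetase transcripts moved mostly downward: 10 of 18 fell (VARS1, FARSB, FARSA, YARS1, IARS1, AARS1, EPRS1, KARS1, SARS1 and LARS1), 4 rose (TARS3, WARS1, TARS1 and CARS1) and 4 were not called. Of the 15 mitochondrial genes 6 fell (NARS2, MARS2, CARS2, EARS2, LARS2 and IARS2), 2 rose (FARS2 and HARS2) and 7 were not called. Among all tested genes 54.9% were called, 28.7% higher and 26.2% lower, and in 62.2% the groups did not overlap. All 22 called members also had no overlap between the groups, beside 53.5% of all tested genes. The median log2 change was -0.25 over the cytosolic and -0.22 over the mitochondrial genes, beside 0.04 over all tested genes. With probe sets ending in _s_at and _x_at left out, which drops 5 cytosolic genes, 4 cytosolic genes fell and the cytosolic median was 0.17. Quantile normalization gave a cytosolic median of -0.12.

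VARS1 showed the largest change of any member. It had log2 signals of 8.75, 9.01 and 8.47 in C-Myc-sh cells, against 10.21, 10.62 and 10.38 in Ctrl-sh cells, or 31.7% of the Ctrl-sh signal (log2 change -1.66, SE 0.15, adjusted p = 3.26e-07). The lowest Ctrl-sh array lay above the highest C-Myc-sh array by more than the range within either group, and the second, dimmer VARS1 probe set gave -2.08. The 2 subunits of the phenylalanine enzyme fell to a like extent. FARSB had 11.83, 11.94 and 11.89 in C-Myc-sh cells, against 12.86, 12.89 and 12.87 in Ctrl-sh cells, or 50.4% (adjusted p = 2.98e-09). FARSA had 10.10, 9.93 and 9.77 in C-Myc-sh cells, against 10.94, 10.80 and 11.01 in Ctrl-sh cells, or 50.6% (adjusted p = 1.12e-06). Neither overlapped with Ctrl-sh. A second FARSA probe set gave -1.12, whereas the other FARSB probe sets gave -0.27 and 0.38.

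YARS1 had 11.90, 12.09 and 12.08 in C-Myc-sh cells, against 12.71, 12.74 and 12.66 in Ctrl-sh cells, or 62.5% (log2 change -0.68, SE 0.06, adjusted p = 4.14e-07). Its arrays stood fully apart, but a dimmer YARS1 probe set gave 0.66, in the other direction. IARS1, for isoleucine, had 13.36, 13.46 and 13.36 in C-Myc-sh cells, against 13.89, 13.94 and 13.91 in Ctrl-sh cells (-0.52, adjusted p = 1e-06). AARS1, for alanine, had 11.65, 11.64 and 11.73 in C-Myc-sh cells, against 12.22, 12.12 and 12.15 in Ctrl-sh cells (-0.49, adjusted p = 3.36e-06). Both fell without overlap, and both carry the response element letters printed above. IARS1 also carries the E-box letters, at -186 to -181 from its start. Further decreases were those of EPRS1 (-0.49, adjusted p = 1.74e-06), KARS1 (lysine; -0.45, adjusted p = 3.03e-06), SARS1 (serine; -0.27, adjusted p = 0.00197) and LARS1 (-0.23, adjusted p = 0.00107). The decrease of LARS1 was not called after quantile normalization (-0.07, adjusted p = 0.188) or with all its probe sets averaged (-0.18).

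WARS1 had 12.28, 12.13 and 12.20 in C-Myc-sh cells, against 11.45, 11.51 and 11.36 in Ctrl-sh cells, and was 1.7-fold higher (log2 change 0.77, SE 0.07, adjusted p = 3.16e-07). TARS1 had 12.36, 12.47 and 12.47 in C-Myc-sh cells, against 11.89, 11.98 and 11.95 in Ctrl-sh cells (0.49, SE 0.06, adjusted p = 7.14e-06). CARS1 had 12.896, 12.958 and 12.998 in C-Myc-sh cells, against 12.63, 12.70 and 12.42 in Ctrl-sh cells (0.37, SE 0.07, adjusted p = 0.000522). These 3, which had also risen in Slc7a5-sh cells, showed no overlap with Ctrl-sh. TARS3, a close relative of TARS1 that also charges threonine, had 8.80, 9.63 and 9.08 in C-Myc-sh cells, against 8.14, 7.94 and 8.33 in Ctrl-sh cells. It was 2.05-fold higher (log2 change 1.03, SE 0.20, adjusted p = 0.000464), with a wide spread among the C-Myc-sh arrays. Its second probe set lies below the filter level and gave -1.59. GARS1 (-0.05, 95% interval -0.18 to 0.09), NARS1 (-0.09), HARS1 (0.17, adjusted p = 0.0703) and RARS1 (-0.16) were not called. HARS1 was called at the same 0.17 without Slc7a5-sh array 1 or 3, and after quantile normalization GARS1 (0.16, adjusted p = 0.0126) and NARS1 (0.11, adjusted p = 0.033) were called higher.

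NARS2 had 10.47, 10.41 and 10.50 in C-Myc-sh cells, against 11.32, 11.37 and 11.35 in Ctrl-sh cells, or 54.2% (log2 change -0.88, SE 0.07, adjusted p = 4.64e-08). MARS2, the mitochondrial methionine enzyme, had 8.986, 8.995 and 9.429 in C-Myc-sh cells, against 9.94, 9.81 and 9.77 in Ctrl-sh cells, or 61.5% (-0.70, SE 0.13, adjusted p = 0.000367). CARS2 had 10.74, 10.61 and 10.56 in C-Myc-sh cells, against 11.23, 11.24 and 11.21 in Ctrl-sh cells (-0.59, SE 0.07, adjusted p = 3.64e-06). All 3 fell with no overlap, and MARS2 and CARS2 are the genes whose E-box windows are printed above. NARS2, FARSA and FARSB, which fell further than MARS2 and CARS2, had windows without the E-box letters, and VARS1 and YARS1 had no window. A link between these letters and the decreases was not tested. EARS2, for glutamate, is the other mitochondrial gene with an E-box match and had 9.09, 9.17 and 9.32 in C-Myc-sh cells, against 9.61, 9.45 and 9.60 in Ctrl-sh cells (-0.36, adjusted p = 0.0424). IARS2 changed by -0.27 (adjusted p = 0.00081) and LARS2, for leucine, by -0.33 (adjusted p = 0.0476). A second, slightly dimmer LARS2 probe set gave 0.33, in the other direction, and -0.02 between the knockdowns. FARS2 (0.36, adjusted p = 0.0117) and HARS2 (0.28, adjusted p = 0.0164) were higher.

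Several mitochondrial calls were near the threshold. EARS2 was not called without Ctrl-sh array 1 or 3 (-0.33 each), Slc7a5-sh array 1 (-0.36), C-Myc-sh array 1 (-0.31) or C-Myc-sh array 2 (-0.35), and LARS2 lost its call without any single array other than C-Myc-sh array 1 (-0.33 to -0.26). FARS2 lost its call without Ctrl-sh array 2 (0.30) or C-Myc-sh array 1 (0.31), and HARS2 without Ctrl-sh array 3 (0.23) or C-Myc-sh array 3 (0.25). After quantile normalization neither FARS2 (0.25) nor HARS2 (0.20) was called. YARS2 had a log2 change of -0.44 (adjusted p = 0.0571) and was called, at -0.63, without Ctrl-sh array 2 or C-Myc-sh array 1. The other 6 genes not called had log2 changes between -0.22 (WARS2) and 0.24 (PARS2). The mitochondrial genes were measured less sharply than the cytosolic ones, with a median SE of 0.131 against 0.0635.

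**Figure D2:**
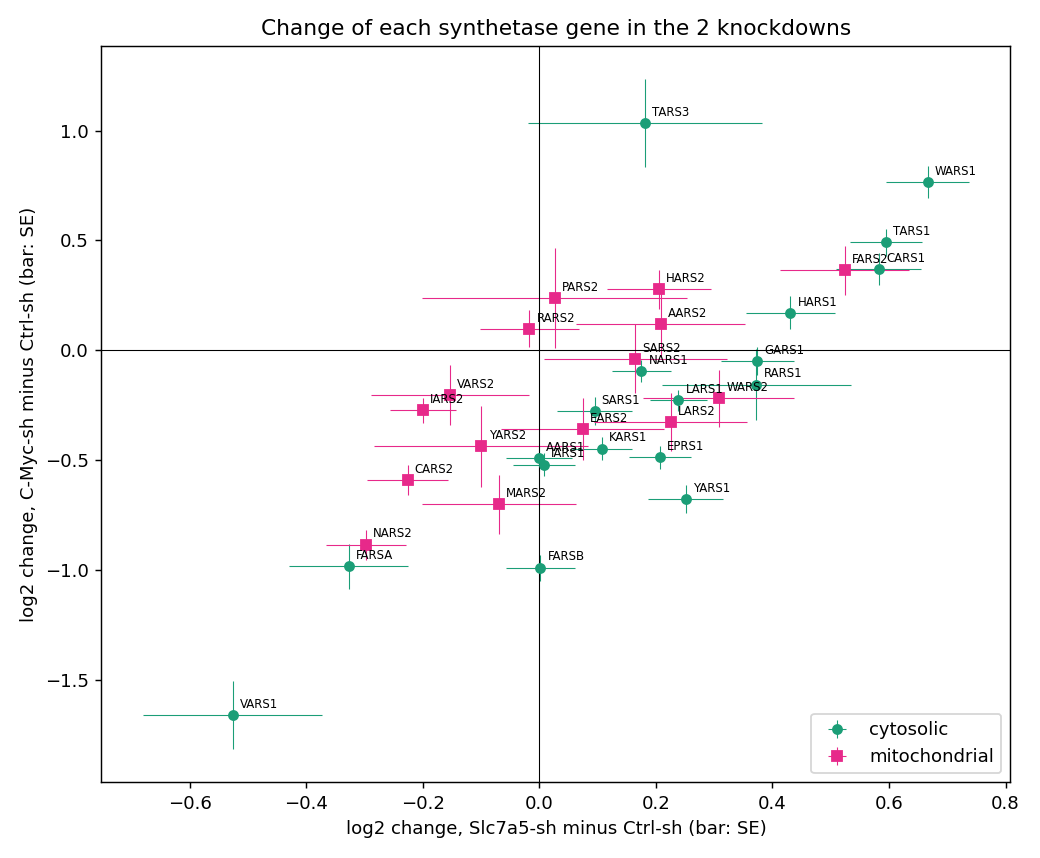
Log2 change of each measured synthetase gene in Slc7a5-sh cells (x axis) and in C-Myc-sh cells (y axis), each against the same 3 Ctrl-sh arrays, with bars for the SE, circles for cytosolic and squares for mitochondrial genes. EPRS1, LARS1 and YARS1 lie right of 0 on the x axis and below 0 on the y axis.

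The patterns of call over the 2 knockdowns, which share their Ctrl-sh arrays, sorted the members into 7 groups. CARS1, TARS1, WARS1 and FARS2 were higher in both, as were 9.78% of all tested genes. FARSA, VARS1, CARS2, IARS2 and NARS2 were lower in both, as were 7.3% of tested genes. EPRS1, LARS1 and YARS1 were higher in Slc7a5-sh and lower in C-Myc-sh cells, a pattern shown by 168 of 11250 tested genes (1.49%). GARS1, HARS1 and NARS1 were called higher in Slc7a5-sh cells alone, as were 3% of tested genes, and 8 genes fell in C-Myc-sh cells alone (AARS1, FARSB, IARS1, KARS1, SARS1, EARS2, LARS2 and MARS2), as did 17.4%. TARS3 and HARS2 were called higher in C-Myc-sh cells alone, as were 17.9% of tested genes. RARS1 and 7 mitochondrial genes (AARS2, PARS2, RARS2, SARS2, VARS2, WARS2 and YARS2) were called in neither, as were 39.4%. Which of these members differ between the knockdowns was tested directly. That comparison cannot be read as carrier loss against MYC loss alone, because SLC7A5 was lower than in Ctrl-sh cells in both knockdowns.

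Set directly against Slc7a5-sh cells, C-Myc-sh cells had lower signals of 15 of the 18 cytosolic genes and a higher signal of 1, TARS3. TARS1 and WARS1 were not called. Of the mitochondrial genes 6 were lower (CARS2, EARS2, LARS2, MARS2, NARS2 and WARS2), 0 higher and 9 not called. Among all tested genes 49.5% were called, 24.4% higher and 25.1% lower, and in 56.5% the groups did not overlap. All 22 called members had no overlap between the groups, as did 5366 of the 5569 called genes among all tested genes. The median log2 difference, C-Myc-sh minus Slc7a5-sh, was -0.48 over the cytosolic and -0.20 over the mitochondrial genes, beside 0.03 over all tested genes. The cytosolic median was -0.27 without _s_at and _x_at probe sets. With all probe sets of a gene averaged, 13 instead of 22 members were called and the mitochondrial median was -0.0919.

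YARS1, at 11.90 to 12.09 in C-Myc-sh cells and 12.85 to 13.01 in Slc7a5-sh cells, differed by -0.93 (SE 0.06, adjusted p = 2.27e-08), whereas its dimmer probe set gave 0.53 and both averaged gave -0.20 (adjusted p = 0.181). FARSB differed by -0.99 (adjusted p = 4.71e-09), VARS1 by -1.13 (adjusted p = 2.24e-05) and EPRS1 by -0.69 (adjusted p = 6.45e-08). GARS1, called against Ctrl-sh in 1 knockdown alone, differed between the knockdowns too (-0.42, adjusted p = 5.33e-05), as did HARS1 (-0.26, adjusted p = 0.0103), NARS1 (-0.27, adjusted p = 0.000413) and AARS1 (-0.49, adjusted p = 4.79e-06). For WARS1 the difference was 0.10 with a 95% interval of -0.05 to 0.25, and for TARS1 it was -0.10 with an interval of -0.23 to 0.03, so both intervals hold 0. CARS1 differed by -0.21 (adjusted p = 0.0242), a call lost without Slc7a5-sh array 1 (-0.21) or 3 (-0.16) or C-Myc-sh array 1 (-0.19) or 2 (-0.22). After quantile normalization CARS1 (-0.0824, adjusted p = 0.301), NARS1 (-0.0755, adjusted p = 0.131) and RARS1 (-0.41, adjusted p = 0.0519) were not called, and WARS1 was called higher in C-Myc-sh cells (0.20, adjusted p = 0.031). In contrast to the other 5 lower mitochondrial genes, WARS2 was called in neither comparison with Ctrl-sh but differed here (-0.53, adjusted p = 0.00346), with changes of 0.31 in Slc7a5-sh cells and -0.22 in C-Myc-sh cells. The direct call of EARS2 (-0.43) was lost without Slc7a5-sh array 2 (-0.27) or C-Myc-sh array 1 (-0.38).

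The 2 classes were also averaged on each array, as the mean over members of the log2 difference from the Ctrl-sh mean. The cytosolic mean was 0.19 ± 0.08 in Slc7a5-sh cells and -0.23 ± 0.06 in C-Myc-sh cells (SD, n = 3 each), with single arrays between 0.13 and 0.28 and between -0.30 and -0.17. Ctrl-sh arrays lay between -0.02 and 0.02. The mitochondrial mean was 0.04 ± 0.05 in Slc7a5-sh cells and -0.20 ± 0.04 in C-Myc-sh cells, while Ctrl-sh arrays lay between -0.06 and 0.04. Over all tested genes, single arrays lay between 0.026 and 0.034 in Slc7a5-sh cells and between 0.064 and 0.095 in C-Myc-sh cells. The Ctrl-sh arrays lay between -0.014 and 0.011, so the mean of all tested genes stood clear and above in both knockdowns. With the probe sets used, the cytosolic class also stood clear of Ctrl-sh in both knockdowns, but on opposite sides of it. Standing clear was thus not particular to this class. The mitochondrial class stood clear in C-Myc-sh cells only and overlapped with Ctrl-sh in Slc7a5-sh cells. These means are descriptions, and they were not tested. The cytosolic medians depended on the probe sets. In C-Myc-sh cells the median was 0.17 without _s_at and _x_at probe sets, and in Slc7a5-sh cells it was 0.0591 with all probe sets averaged.

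**Figure D3:**
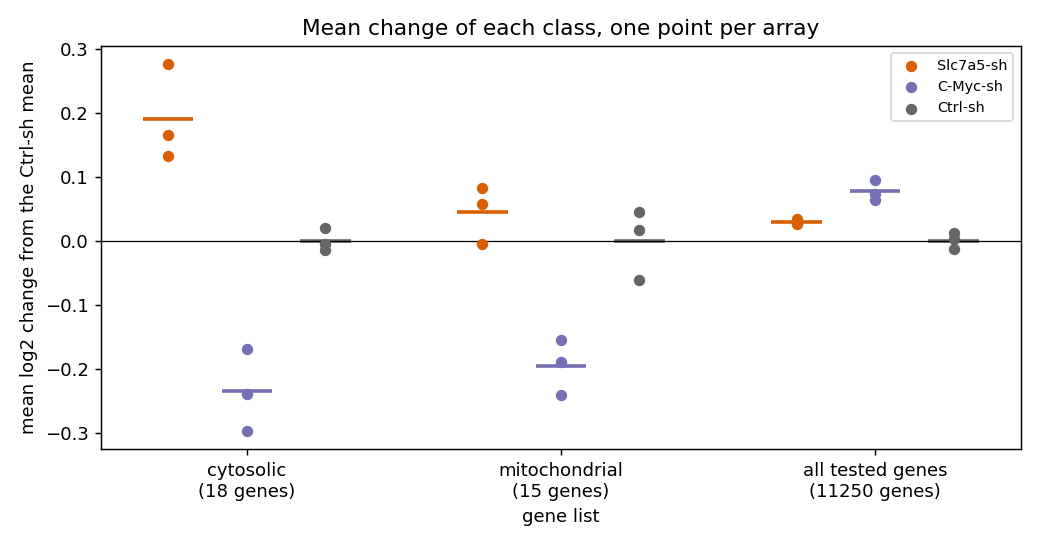
Mean log2 difference from the Ctrl-sh mean (y axis) over 18 cytosolic, 15 mitochondrial and all 11250 tested genes, 1 point per array in Slc7a5-sh, C-Myc-sh and Ctrl-sh cells, with a line at each group mean. The cytosolic points lie above 0 in Slc7a5-sh cells and below 0 in C-Myc-sh cells.

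By the amino acid served, the 8 measured cytosolic genes for amino acids that SLC7A5 carries were FARSA, FARSB, HARS1, IARS1, LARS1, VARS1, WARS1 and YARS1. In Slc7a5-sh cells 4 of them rose and 2 fell (median 0.12), while of the 10 cytosolic genes for other amino acids 5 rose and 0 fell (median 0.19). The averages per array were 0.09 ± 0.10 and 0.27 ± 0.06 (SD, n = 3). In C-Myc-sh cells 6 of the 8 fell and WARS1 rose (median -0.60), and of the 10 others 4 fell and 3 rose (median -0.13), with averages of -0.51 ± 0.05 and -0.01 ± 0.10. The cytosolic genes for carried amino acids were thus the lower group by their averages in both knockdowns, a difference that was not tested. This group holds both subunits of the phenylalanine enzyme. It also holds VARS1 and FARSA, whose calls in Slc7a5-sh cells depended on single arrays. Among these 8 genes the extremes were tryptophan (WARS1) and valine (VARS1), on opposite sides of 0 in each knockdown. In mitochondria, 1 of the 8 genes for carried amino acids rose and 1 fell in Slc7a5-sh cells, and 2 rose and 3 fell in C-Myc-sh cells. Of the 7 others 0 rose and 2 fell in Slc7a5-sh cells, and 0 rose and 3 fell in C-Myc-sh cells. Mitochondrial medians for carried and other amino acids were 0.07 and 0.03 in Slc7a5-sh cells, and -0.25 and -0.04 in C-Myc-sh cells. So the carried group was not the lower one by its median in Slc7a5-sh cells. For comparison, 14.3% of all tested genes rose and 11% fell in Slc7a5-sh cells. The shares in C-Myc-sh cells were 28.7% and 26.2%.

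For 13 pairs a cytosolic and a mitochondrial gene serve the same amino acid, with FARSA and FARSB each set against FARS2. The cytosolic change exceeded the mitochondrial one in 8 of 13 pairs in Slc7a5-sh cells and in 4 of 13 in C-Myc-sh cells, with median differences, cytosolic minus mitochondrial, of 0.21 and -0.24. Valine showed the widest gap in C-Myc-sh cells: the difference was -1.46 between VARS1 and VARS2, which was not called (-0.20, 95% interval -0.49 to 0.09). Phenylalanine enzymes moved in opposite directions, with differences of -1.35 for both FARSA and FARSB against FARS2 in C-Myc-sh cells. Cysteine and tryptophan ran the other way, with differences of 0.96 for CARS1 against CARS2 and of 0.98 for WARS1 against WARS2. CARS1 rose and CARS2 fell in both knockdowns.

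**Figure D4:**
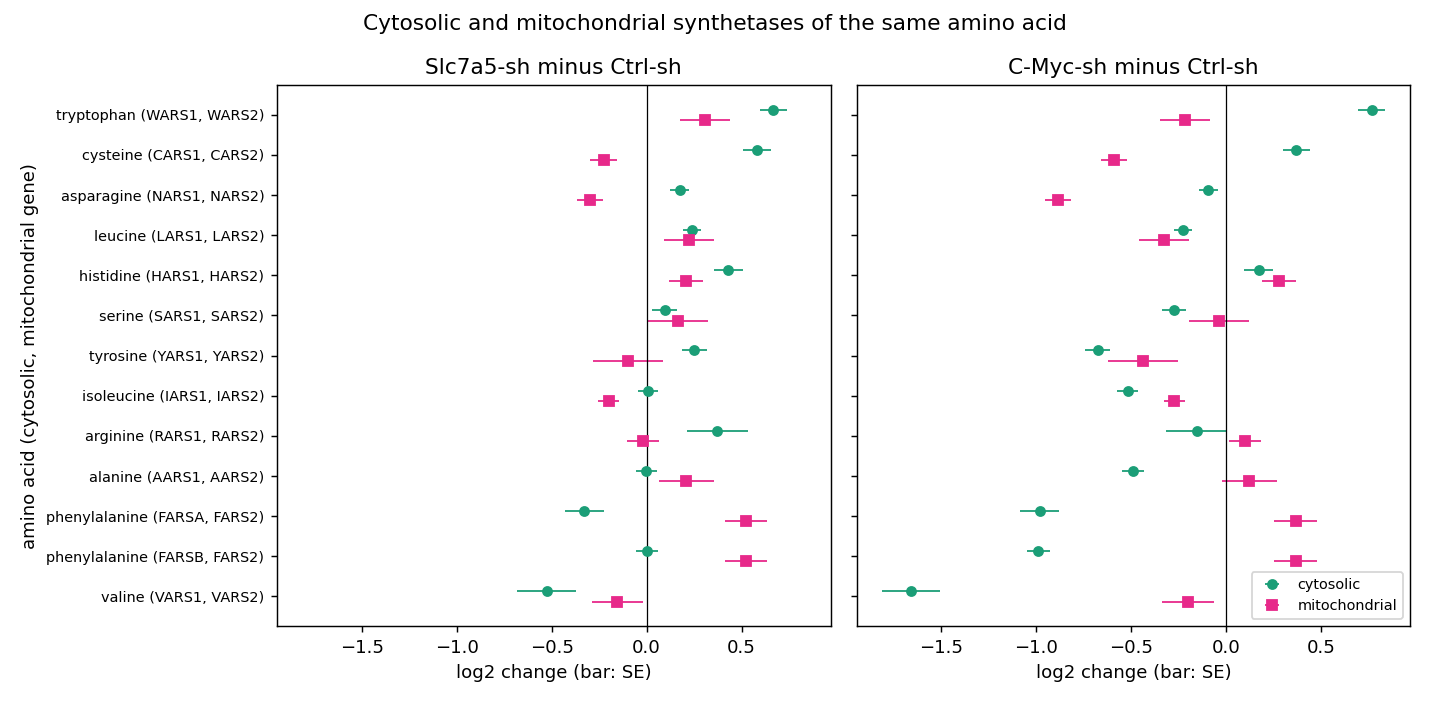
Log2 change against Ctrl-sh (x axis, bars for the SE) of the cytosolic gene (circle) and the mitochondrial gene (square) of 13 pairs that serve the same amino acid (rows), for Slc7a5-sh in the left panel and C-Myc-sh in the right. Valine and phenylalanine show the widest gaps between the classes in C-Myc-sh cells.

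HARS1 and HARS2 are neighbours that start head to head on chromosome 5, with 84 bases between their starts. This stretch is printed on the strand of HARS2, chosen after their values were seen, because 1 short sequence lies before both genes.
HARS1 to HARS2, chr5:140691371-140691454 (plus strand): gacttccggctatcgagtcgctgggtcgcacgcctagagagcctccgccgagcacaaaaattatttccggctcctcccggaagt
It holds neither motif. HARS1 was called in Slc7a5-sh cells (0.43) and HARS2 in C-Myc-sh cells (0.28), and all 4 of their changes against Ctrl-sh were above 0. HARS2 had 10.57, 10.31 and 10.49 in Slc7a5-sh cells and 10.47, 10.52 and 10.59 in C-Myc-sh cells, against 10.25, 10.35 and 10.16 in Ctrl-sh cells, so that in Slc7a5-sh cells its lowest array overlapped with Ctrl-sh.

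Some cytosolic synthetases sit together in the multi-synthetase complex, an assembly of several enzymes with scaffold proteins. Of its 5 measured enzymes (EPRS1, IARS1, KARS1, LARS1 and RARS1) 2 rose and 0 fell in Slc7a5-sh cells, and 0 rose and 4 fell in C-Myc-sh cells, with medians of 0.21 and -0.45. Of the 13 enzymes outside it 7 rose and 2 fell in Slc7a5-sh cells, and 4 rose and 6 fell in C-Myc-sh cells. All 5 genes of the complex were lower in C-Myc-sh than in Slc7a5-sh cells, as were 10 of the 13 others, beside 25.1% of all tested genes. Of 11 cytosolic genes known as targets of the amino acid response 8 rose and 0 fell in Slc7a5-sh cells, and 3 rose and 6 fell in C-Myc-sh cells (medians 0.24 and -0.23). Of the 7 cytosolic genes not on that list 1 rose and 2 fell in Slc7a5-sh cells, and 1 rose and 4 fell in C-Myc-sh cells (medians 0.11 and -0.45). Enzymes of both structural classes of synthetase moved each way: in Slc7a5-sh cells 4 of 7 cytosolic class I genes and 4 of 10 class II genes rose. Beside these counts, 14.3% of all tested genes rose and 11% fell in Slc7a5-sh cells, and 28.7% rose and 26.2% fell in C-Myc-sh cells. The differences between these groups of genes were not tested.

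Response element letters and calls matched in part. Of the 6 measured cytosolic genes with the letters, TARS1, CARS1, GARS1 and NARS1 rose in Slc7a5-sh cells, while AARS1 (-0.00) and IARS1 (0.01) were not called. In C-Myc-sh cells TARS1 and CARS1 rose, AARS1 and IARS1 fell, and GARS1 and NARS1 were not called. WARS1, HARS1, EPRS1 and FARS2 rose in Slc7a5-sh cells without the letters in their windows, and YARS2, the mitochondrial gene with the letters, was not called in either knockdown.

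Outside the synthetases, 8 genes of the amino acid response were read as a comparison. All 8 rose in Slc7a5-sh cells (median 0.64), beside 14.3% of all tested genes. In C-Myc-sh cells 5 rose and 2 fell (median 1.20), beside 28.7% and 26.2% of all tested genes. The 5 were SLC7A11 (2.22), DDIT3 (1.66), CHAC1 (1.59), SESN2 (1.35) and TRIB3 (1.04). Their changes in Slc7a5-sh cells were 1.95, 0.46, 1.22, 0.67 and 0.81 in the same order. ATF4 itself rose by 0.43 in Slc7a5-sh cells (adjusted p = 0.000102) and was not called in C-Myc-sh cells (0.11, adjusted p = 0.118). After quantile normalization ATF4 was called higher in C-Myc-sh cells (0.31, adjusted p = 0.000115), as it was without C-Myc-sh array 1 (0.15, adjusted p = 0.0367), and the 2 genes that fell, ASNS and PSAT1, were not called.

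Of 23 listed genes that act beside the synthetases, 16 were tested. In Slc7a5-sh cells 3 rose and 2 fell (18.8% and 12.5%, median -0.11), near the 14.3% and 11% of all tested genes. In C-Myc-sh cells 3 rose and 11 fell (18.8% and 68.8%, median -0.38), beside 28.7% and 26.2% of all tested genes. XPOT, which exports transfer RNA from the nucleus, rose by 0.22 in Slc7a5-sh cells (adjusted p = 0.00666) and fell by 0.19 in C-Myc-sh cells (adjusted p = 0.00784). After quantile normalization XPOT was not called in C-Myc-sh cells (0.01, adjusted p = 0.864). Among those that fell in C-Myc-sh cells were TUFM and TSFM, elongation factors of mitochondria (-0.82 and -0.65), MTFMT, which formylates the initiator methionyl-tRNA (-0.58), and GATB and GATC of the complex that makes glutaminyl-tRNA in mitochondria (-0.53 and -0.65). QRSL1, the remaining subunit of that complex, rose by 0.28 in Slc7a5-sh cells (adjusted p = 0.00774) and was not called in C-Myc-sh cells (-0.12). TUFM (-0.39, adjusted p = 0.001) and MTFMT (-0.33, adjusted p = 0.00622) also fell in Slc7a5-sh cells. DTD1 and DTD2, which remove wrongly attached residues from transfer RNA, fell in C-Myc-sh cells (-0.86 and -0.85), as did ELAC2 and TRNT1, which process transfer RNA 3′ ends (-0.57 and -0.23), and AIMP1, a scaffold of the multi-synthetase complex (-0.24). TRNT1 was not called without Ctrl-sh array 1 (-0.19), Ctrl-sh array 3 (-0.23), C-Myc-sh array 1 (-0.16) or C-Myc-sh array 3 (-0.20).

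The selenocysteine route starts from seryl-tRNA, which PSTK phosphorylates and SEPSECS converts. PSTK was higher in Slc7a5-sh cells (0.71, adjusted p = 0.00441) and in C-Myc-sh cells (0.53, adjusted p = 0.0105), the C-Myc-sh call being lost without Ctrl-sh array 1 (0.33). SEPSECS was higher in C-Myc-sh cells (0.74, adjusted p = 0.00384), as was PTRHD1 (0.64, adjusted p = 7.31e-06). PRORSD1P was not called in either knockdown.

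For 18 members more than 1 probe set reached the filter level. All probe sets of a gene had the same sign in 10 of the 18 in Slc7a5-sh cells and in 12 of the 18 in C-Myc-sh cells. WARS1 agreed in both knockdowns, its other probe set giving 0.73 in each. EPRS1 and LARS1 disagreed in Slc7a5-sh cells and LARS1 and YARS1 in C-Myc-sh cells, so the opposite calls of these 3 genes rest on their brightest probe sets.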

How the data were processed

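Total RNA of 9 Daudi cultures was amplified from the 3′ end, labelled with biotin and hybridised to short-oligonucleotide arrays, per the labels' protocols. The authors deposited log2 signals, 1 per probe set and array. The submitters' processing notes name MAS5, which combines perfect-match and mismatch probes, without a version. After conversion to linear scale, the mean with 2% trimmed at each end was 497 on each array, so the arrays share a scaling target. Such values do not show the total RNA of a cell, and low MAS5 signals vary strongly. Groups and replicate numbers come from the sample titles.

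Of 54613 probe sets 41091 carry 1 gene symbol and 1801 several; those with several were not used. The probe set with the highest mean represented a gene, which gave 19775 genes, of which 11250 were tested, those whose mean reached the median over probe sets (5.77 log2, 54.6 linear). R 4.3.3 and limma 3.58.1 (lmFit with 3 group means, eBayes with trend, 6 residual degrees of freedom, two-sided, Benjamini-Hochberg over 11250 genes, threshold 0.05) gave all p-values. The procedure was tested on simulated data. Alternatives were another normalization, other probe-set and filter rules, other variance models, a replicate block and the omission of each array. The members and lists were chosen with earlier results of these data known, so their counts are descriptions. Values are given array by array for members called with no overlap between groups, the largest changes first. Promoter sequences are RefSeq's, with starts as in that table; protein sequences were not analysed here.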

Additional observations from a re-analysis of the deposited data

How the results depend on the processing

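Of 1761 recomputed values of single members, 1621 kept their direction and their side of the threshold, 82 lost a call, 17 gained one and 41 turned sign, 28 of these uncalled both times. All 18 alternatives kept the call of HARS1, WARS1 and NARS2 in Slc7a5-sh cells and of 9 of 22 called members in C-Myc-sh cells. GARS1 in Slc7a5-sh and EPRS1, IARS1 and VARS1 in C-Myc-sh cells kept it in the 17 that measure them. Quantile normalization gave, in C-Myc-sh cells, a cytosolic median of -0.12, a mitochondrial median of -0.31, 0 mitochondrial genes higher and reversed values of GARS1 (0.16), NARS1 (0.11), XPOT (0.0125) and PSAT1 (0.0228). Between the knockdowns it gave 2 cytosolic genes higher and medians of -0.32 and -0.31. The cause was not tested. Averaging all probe sets of a gene lowered the calls over all genes to 1527, 4680 and 3992, against 2843, 6178 and 5569 for Slc7a5-sh, C-Myc-sh and the direct comparison. In Slc7a5-sh cells it then called 6 members, with 4 cytosolic genes higher, 0 lower and 0 mitochondrial genes higher, medians of 0.0591 and -0.0693, and reversed CARS1 (-0.0788), EPRS1 (-0.15) and FARS2 (-0.24). In C-Myc-sh cells it gave 2 cytosolic genes higher and 3 mitochondrial genes lower, with TARS3 (-0.28), FARS2 (-0.15) and LARS2 (0.0034) reversed. In the direct comparison it called 13 members, with 0 cytosolic genes higher, 2 mitochondrial genes lower and medians of -0.35 and -0.0919, and CARS1 (0.19), TARS3 (-0.28) and DTD1 (0.11) reversed. Averaging adds dim probe sets, but not only those. In Slc7a5-sh cells the CARS1 and FARS2 probe sets of opposite sign were dim (means 6.09 and 3.43), whereas those of EPRS1 were not (means 11.85 and 9.92). The part of dim probe sets in these shifts was not tested. Without _s_at and _x_at probe sets, 13 of 18 cytosolic genes remained measurable. In Slc7a5-sh cells 9 members were called, with 5 cytosolic genes higher and 0 lower. In C-Myc-sh cells 4 cytosolic genes were lower (median 0.17), with FARSB (0.38) and YARS1 (0.66) reversed. Directly, 8 were lower (median -0.27) and YARS1 read 0.53. A filter at the 75th percentile removed TARS3 and left 0 cytosolic genes higher in the direct comparison, and eBayes without a trend left 0 cytosolic genes lower in Slc7a5-sh cells. Leaving out 1 array at a time gave 10 to 16 called members in Slc7a5-sh cells, 19 to 22 in C-Myc-sh cells and 21 to 22 directly. For Slc7a5-sh the ranges were 8 to 10 cytosolic genes higher, 0 to 2 lower and a median of 0.17 to 0.23, and 1 to 2 mitochondrial genes higher, 1 to 3 lower and a median of -0.0051 to 0.10. For C-Myc-sh they were 4 to 5 cytosolic genes higher, 10 lower and a median of -0.28 to -0.25, and 1 to 2 mitochondrial genes higher, 4 to 6 lower and a median of -0.31 to -0.19. Directly, 1 cytosolic gene was higher, 14 to 15 lower and the median -0.49 to -0.44, and 0 mitochondrial genes were higher, 5 to 6 lower and the median -0.26 to -0.15. Arrays with the same replicate number did not deviate together (correlations between -0.0235 and 0.0179). With 3 arrays a group this cannot tell whether equal numbers share an infection or a day. A replicate block gave 16, 21 and 22 called members and 2775, 6147 and 5526 called genes, gained RARS1 in Slc7a5-sh and YARS2 in C-Myc-sh cells, and lost EARS2 and LARS2 in C-Myc-sh cells. With 3 arrays a group, small changes of dim genes cannot be resolved.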
